A study of Mus musculus with 63 samples.

Results

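Astrocytes take up the potassium and water that neuronal activity leaves in the extracellular space and spread them through a network of coupled cells. 9 genes that carry these functions were followed across sorted populations of mouse cortical cells: the connexins Gja1, Gjb6 and Gjb2, the water channel Aqp4 with the end-foot protein Mlc1, the inwardly rectifying potassium channels Kcnj10 and Kcnj16, the sodium-potassium pump subunit Atp1b2, and the sodium-bicarbonate cotransporter Slc4a4. They were chosen by name from the 56980 genes of the count tables, by the symbols that match their Ensembl identifiers, and all 9 were found and passed the filter on low counts in every comparison. Their identifiers are ENSMUSG00000050953 (Gja1), ENSMUSG00000040055 (Gjb6), ENSMUSG00000046352 (Gjb2), ENSMUSG00000024411 (Aqp4), ENSMUSG00000035805 (Mlc1), ENSMUSG00000044708 (Kcnj10), ENSMUSG00000051497 (Kcnj16), ENSMUSG00000041329 (Atp1b2) and ENSMUSG00000060961 (Slc4a4). Levels are given as CPM, in which each count is divided by the sum of all counts of that library and put on a common scale.

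The libraries came from female C57BL/6J mice, 12 weeks old on arrival, 5 weeks after either a thermal burn over 7 to 8% of the total body surface area or a sham injury. Every mouse, sham-injured mice included, had received AAV5-CamKII-eGFP and AAV1-mDlx-mRuby2 in the primary motor cortex. Cells positive for CaMKII only (4 burn and 6 sham mice) and cells double-positive for CaMKII and mDlx (9 burn and 7 sham mice) were sorted from the motor cortex on the reporters. Expression from this CaMKII fragment is not limited to excitatory cells. ACSA2-positive cells (9 burn and 8 sham mice) and CD11b-positive cells (8 burn and 7 sham mice) were sorted by antibody from the cortex caudal to it, and CD11b is also carried by myeloid cells other than microglia. Of 63 libraries, 58 were kept, without those of mouse 3 and the double-positive library of mouse 8. The kept libraries held between 13346143 counts, in a CaMKII positive library, and 134703744 counts, in another.

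The contents of some populations did not match the labelled cell type, and this bears on every level below. In the 10 CaMKII positive libraries, labelled as excitatory neurons, the summed level of 13 astrocyte markers was between 16296 and 29652 CPM, all 13 being counted in every library, while 6 excitatory neuron markers together reached between 28.5 and 412 CPM, and Neurod6 and Tbr1 were at 0 in some libraries. These libraries also held 8 endothelial markers at a median sum of 5319 CPM. In the 16 double-positive libraries, labelled as inhibitory neurons, 9 microglia markers summed to between 18221 and 33503 CPM and 10 inhibitory neuron markers to between 0.845 and 3.76 CPM, with 9 of these 10 at 0 in at least 1 library. The ACSA2-positive and CD11b-positive libraries held their own markers, at median sums of 46978 CPM for the astrocyte list and 27776 CPM for the microglia list. The populations are therefore named by what they were sorted on. In bulk libraries, fewer cells of a type and less RNA per cell cannot be told apart.

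Connexins form gap junction channels, through which potassium and small metabolites pass between neighbouring astrocytes. Aqp4 protein sits in the end-feet that wrap blood vessels, and the channel made by Kcnj10, alone or together with the Kcnj16 product, clears potassium around synapses and vessels. The pump to which Atp1b2 belongs moves potassium in against sodium, Slc4a4 carries bicarbonate with sodium across the membrane, and Mlc1, at contacts between end-feet, takes part in volume regulation and is mutated in a leukoencephalopathy with brain swelling.

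The promoter windows of the 3 connexins and of Kcnj10 are shown because Gjb2 and Kcnj10 stood outside the main group of members in each population, relative to the ACSA2-positive mean, while Gjb6, which lies on chromosome 14 with its start 28909 bases from that of Gjb2, did not. Kcnj16 stood outside that group in double-positive and CD11b-positive libraries only, and its windows are not shown. The choice of genes rests on levels in these same data. Whether the windows bear on the levels was not tested. The sequences are the 250 bases before the start site, from RefSeq on GRCm38.p6, which may differ from the build used for the counts. RefSeq windows were matched for 7 of the 9 genes. The Gja1 window is at chr10:56377050-56377299 on the plus strand, the Gjb6 window at chr14:57133612-57133861 on the minus strand, the Gjb2 window at chr14:57104703-57104952 on the minus strand and the Kcnj10 window at chr1:172340960-172341209 on the plus strand. Each is written 5′ to 3′ in the direction of the gene, with capitals on matches to the GC box letters GGGCGG on either strand.
Gja1: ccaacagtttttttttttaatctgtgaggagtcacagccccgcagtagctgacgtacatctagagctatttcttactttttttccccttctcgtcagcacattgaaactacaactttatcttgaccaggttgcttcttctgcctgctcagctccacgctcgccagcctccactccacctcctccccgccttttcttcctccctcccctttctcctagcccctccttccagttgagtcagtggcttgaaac
Gjb6: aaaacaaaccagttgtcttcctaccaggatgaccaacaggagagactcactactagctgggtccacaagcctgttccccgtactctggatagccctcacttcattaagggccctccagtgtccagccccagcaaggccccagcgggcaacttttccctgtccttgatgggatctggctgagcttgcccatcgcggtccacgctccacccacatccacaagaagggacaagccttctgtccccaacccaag
Gjb2: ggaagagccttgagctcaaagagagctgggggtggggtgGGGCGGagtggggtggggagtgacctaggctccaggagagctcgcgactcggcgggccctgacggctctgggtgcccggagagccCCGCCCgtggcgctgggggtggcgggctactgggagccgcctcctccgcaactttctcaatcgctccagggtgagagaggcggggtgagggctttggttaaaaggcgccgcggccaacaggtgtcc
Kcnj10: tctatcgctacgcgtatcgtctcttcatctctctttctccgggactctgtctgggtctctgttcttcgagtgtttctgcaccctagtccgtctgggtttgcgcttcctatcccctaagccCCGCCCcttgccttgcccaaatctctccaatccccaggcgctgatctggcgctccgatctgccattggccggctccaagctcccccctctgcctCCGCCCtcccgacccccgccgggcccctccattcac

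The Gjb2 window held 2 GC boxes and 18 CpG dinucleotides at a GC content of 69.2%, and the Kcnj10 window 2 GC boxes and 17 CpG dinucleotides at 62%. The Gja1 and Gjb6 windows held no GC box, with 6 and 5 CpG dinucleotides. Of the other matched members, 1 of the 2 Slc4a4 windows held 1 GC box, with 44 CpG dinucleotides, 1 of the 4 Kcnj16 windows held 1, with 1 CpG dinucleotide, and the Mlc1 window held none. A GC box match was present in 32.7% of all 32851 windows of this length, so a match alone is common. The windows of these 4 genes held no match to the TATA box letters TATAAA (12.4% of all windows), the NFI half-site TTGGCA (12.3%) or the STAT letters TTCNNNGAA (7.02%), each searched on both strands. These are matches of letters only, and no binding or methylation was measured.

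The mean level of 8 of the 9 genes was highest in ACSA2-positive libraries, and that of Gjb2 was about the same in CaMKII positive libraries. This likeness of Gjb2 rested on the CaMKII positive library of mouse 8, at 102 CPM. Without it the CaMKII positive mean was 18.6 CPM, against 26.3 CPM in ACSA2-positive libraries. The summed level of the 9 genes in ACSA2-positive libraries was 12804 ± 1383 CPM (SD, n = 17), against 6379 ± 917 CPM in CaMKII positive (n = 10), 229 ± 92.5 CPM in double-positive (n = 16) and 32.4 ± 12.2 CPM in CD11b-positive libraries (n = 15).

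**Figure D1:**
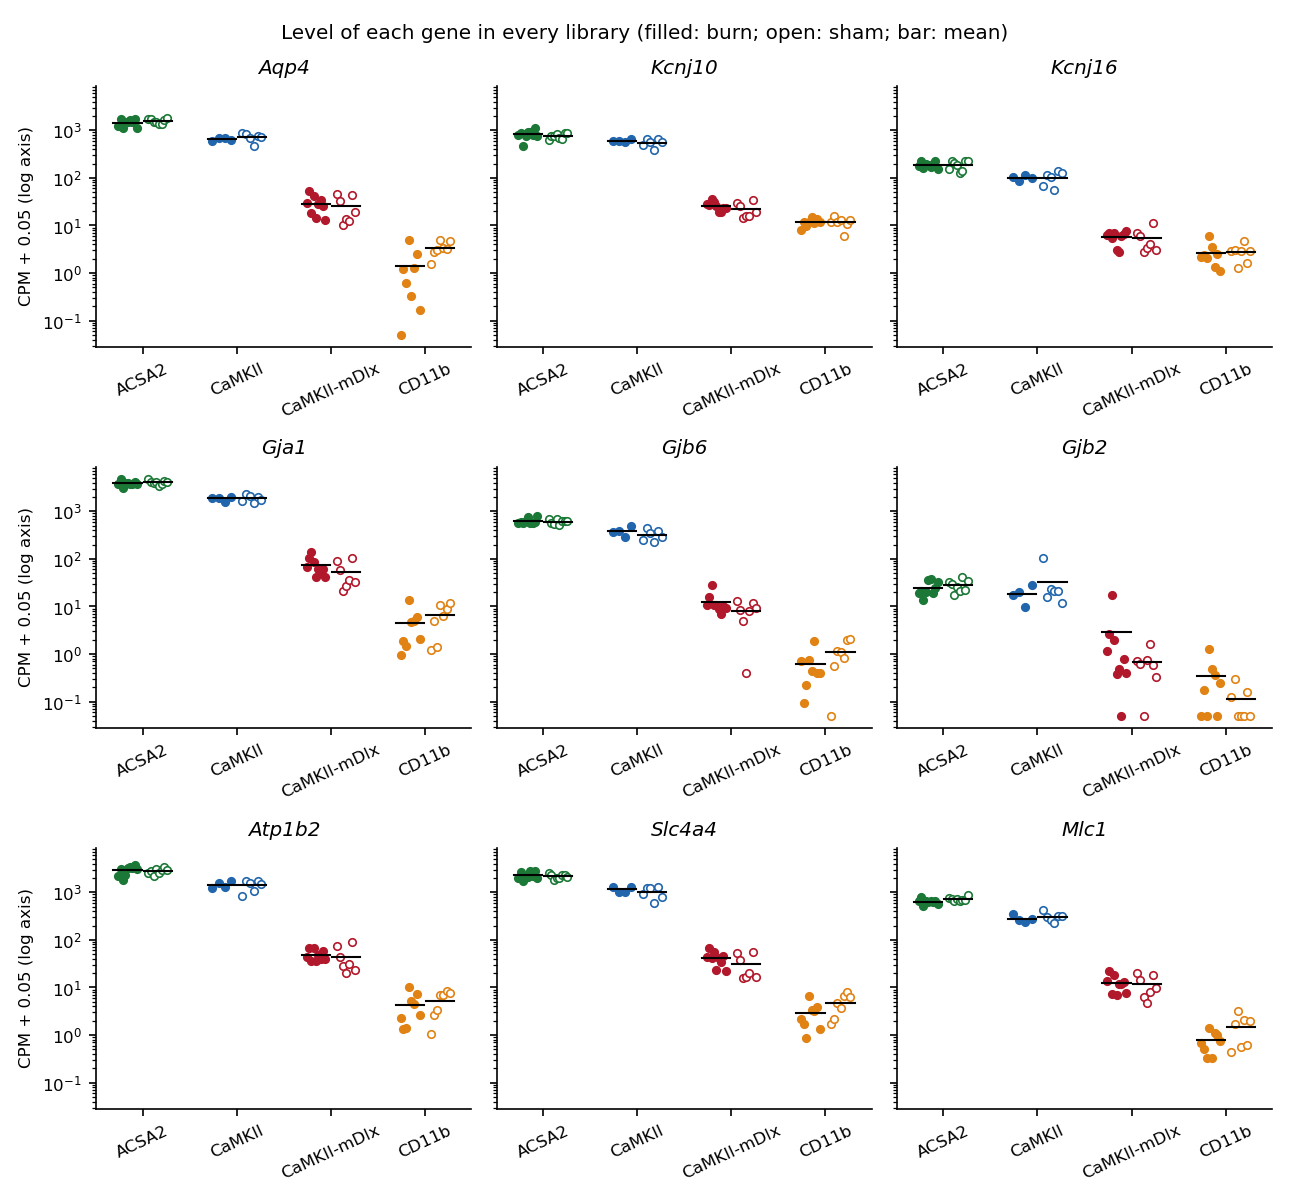
CPM of each of the 9 genes in all 58 kept libraries on a log axis (0.05 CPM was added so that libraries with a count of 0 can be drawn), with filled points for burn, open points for sham and bars for group means. The 4 populations form separate levels for most genes, the burn and sham ranges of each gene overlap within each population, and a single open CaMKII point lies far above the rest for Gjb2.

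Of the connexins, Gja1, the main connexin of astrocytes, was the highest. Its level ran from 3123 to 4784 CPM with a median of 3876 CPM in the 17 ACSA2-positive libraries, and from 1507 to 2261 CPM with a median of 1896 CPM in the 10 CaMKII positive libraries. In the 16 double-positive libraries it ran from 21.5 to 141 CPM with a median of 59.5 CPM, and in the 15 CD11b-positive libraries from 0.929 to 13.4 CPM with a median of 4.93 CPM. The ranges of the 4 populations did not overlap.

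Gjb6, the second connexin of mature astrocytes, ran from 516 to 784 CPM in ACSA2-positive libraries with a median of 606 CPM, and from 221 to 478 CPM in CaMKII positive libraries with a median of 359 CPM. It was between 0.353 and 28.6 CPM in double-positive libraries and between 0 and 2.00 CPM in CD11b-positive ones. Per kilobase of exon, Gjb6 stood at 60.3 ± 8.49% of Gja1 in ACSA2-positive libraries (SD, n = 17) and at 70.4 ± 10.3% in CaMKII positive libraries (n = 10), and the ranges of this ratio overlap.

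Gjb2, a connexin that the leptomeninges also carry, was the lowest of the 9 genes. It ran from 13.6 to 41.2 CPM in ACSA2-positive libraries with a median of 23.9 CPM, and per kilobase it was at 2.85 ± 0.904% of Gja1 there (SD, n = 17). In CaMKII positive libraries it was at 17.6, 19.6, 9.59 and 27.7 CPM in burn mice 2, 20, 22 and 24, and at 102, 15.8, 23.5, 21.1, 20.8 and 11.7 CPM in sham mice 8, 15, 16, 17, 18 and 19. The library of mouse 8 was the only one of the 10 above 27.7 CPM.

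In double-positive libraries Gjb2 had a median of 0.622 CPM, was at 0 in 2 of 16, and reached 17.6 CPM in mouse 10. In CD11b-positive libraries 7 of 15 had a count of 0, where 3 counts would be between 0.0547 and 0.182 CPM, and the highest value was 1.25 CPM from 29 counts. Such limits cover counting error only. Gjb2 was therefore near the detection limit in most CD11b-positive libraries.

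The libraries of mouse 8 and mouse 10 that stood apart for Gjb2 also did so for a list of 6 leptomeningeal fibroblast markers. The list summed to 896 CPM in the CaMKII positive library of mouse 8, against 97.0 to 226 CPM in the other 9. Of these markers Lum and Slc6a13 were at 0 in some CaMKII positive libraries, and Dcn, Lum and Slc6a13 in some double-positive ones. In the double-positive library of mouse 10 it summed to 198 CPM against 3.78 to 19.2 CPM in the other 15. In the first of these libraries 7 oligodendrocyte markers summed to 3723 CPM and 4 ependymal markers to 542 CPM, each the highest of the 10, and in the second 8 endothelial markers summed to 716 CPM. The part of these cells in the Gjb2 values was not tested. Without mouse 8, Gjb2 in CaMKII positive libraries averaged 18.6 ± 5.65 CPM (SD, n = 9) in place of 26.9 ± 26.9 CPM (n = 10), and without mouse 10 it averaged 0.790 ± 0.729 CPM in double-positive libraries (n = 15) in place of 1.84 ± 4.27 CPM (n = 16).

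**Figure D2:**
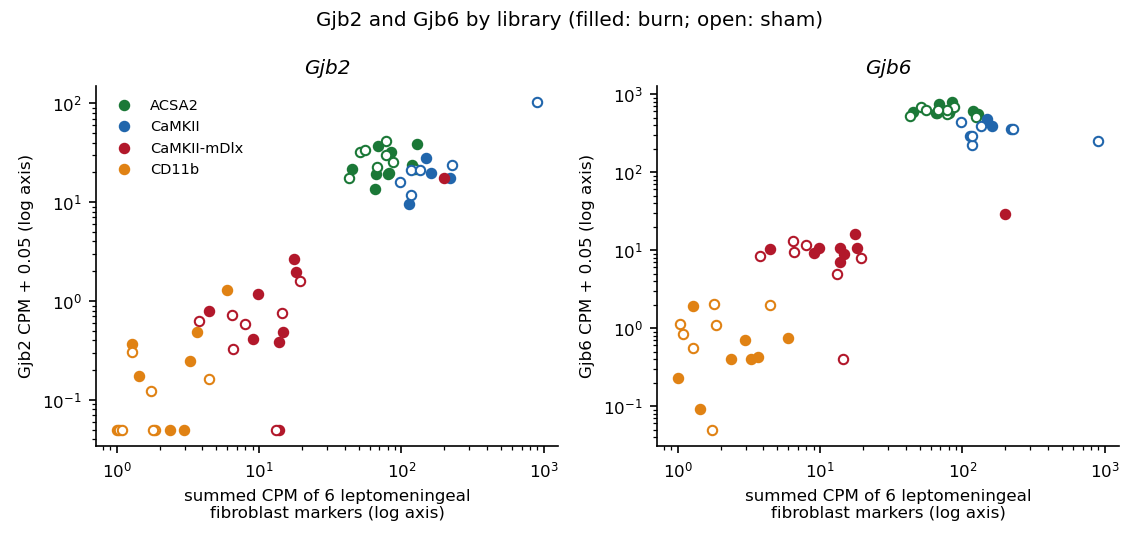
Gjb2 (left) and Gjb6 (right) in CPM plus 0.05 against the summed CPM of 6 leptomeningeal fibroblast markers, both on log axes, with 1 point per kept library (filled, burn; open, sham; colours, populations). The CaMKII point at 102 CPM of Gjb2 and the double-positive point at 17.6 CPM are the points with the highest marker sums of their populations, 896 and 198 CPM.

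The water channel and end-foot genes Aqp4 and Mlc1 stood at similar levels per kilobase. Aqp4 ran from 1107 to 1766 CPM with a median of 1504 CPM in ACSA2-positive libraries, from 459 to 894 CPM in CaMKII positive, from 10.4 to 53.8 CPM in double-positive and from 0 to 4.95 CPM in CD11b-positive libraries. Mlc1 ran from 516 to 855 CPM with a median of 658 CPM in ACSA2-positive, from 227 to 433 CPM in CaMKII positive, from 4.66 to 22.4 CPM in double-positive and from 0.273 to 3.15 CPM in CD11b-positive libraries. For both genes the 4 ranges did not overlap. Per kilobase of exon, Mlc1 was at 101 ± 10.1% of Aqp4 in ACSA2-positive libraries (SD, n = 17), 96.1 ± 16.4% in CaMKII positive libraries (n = 10) and 103 ± 18.3% in double-positive libraries (n = 16).

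The potassium channel genes had a flatter profile. Kcnj10 ran from 471 to 1094 CPM with a median of 784 CPM in ACSA2-positive libraries and from 377 to 661 CPM with a median of 582 CPM in CaMKII positive ones, and these ranges overlap. It was between 14.3 and 36.6 CPM in double-positive and between 5.93 and 15.9 CPM in CD11b-positive libraries, which also overlap. Kcnj10 was counted in every CD11b-positive library, from at least 98 counts.

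Kcnj16, whose product joins that of Kcnj10 in a shared channel, ran from 129 to 231 CPM in ACSA2-positive, from 54.6 to 136 CPM in CaMKII positive, from 2.67 to 11.4 CPM in double-positive and from 1.06 to 5.96 CPM in CD11b-positive libraries. Its level per kilobase was at 32.9 ± 5.92% of Kcnj10 in ACSA2-positive (SD, n = 17), 23.8 ± 3.78% in CaMKII positive (n = 10), 31.5 ± 9.34% in double-positive (n = 16) and 34.1 ± 24.8% in CD11b-positive libraries (n = 15). The ranges of this ratio overlap in all 4 populations.

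Of the transport genes, Atp1b2 ran from 1794 to 3710 CPM in ACSA2-positive libraries with a median of 2965 CPM, from 826 to 1728 CPM in CaMKII positive, from 19.9 to 91.7 CPM in double-positive and from 1.02 to 9.97 CPM in CD11b-positive libraries. Slc4a4 ran from 1727 to 2804 CPM with a median of 2143 CPM in ACSA2-positive, from 609 to 1308 CPM in CaMKII positive, from 15.7 to 66.0 CPM in double-positive and from 0.834 to 7.88 CPM in CD11b-positive libraries. Neither gene had overlapping ranges between the populations.

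Per kilobase of exon, the order in ACSA2-positive libraries was Atp1b2 (695 ± 126 CPM per kilobase, SD, n = 17), Gja1 (386 ± 41.6), Aqp4 (241 ± 34.2), Mlc1 (240.3 ± 28.6), Gjb6 (231 ± 27.0), Slc4a4 (204 ± 29.0), Kcnj10 (146 ± 26.2), Kcnj16 (47.5 ± 8.46) and Gjb2 (10.9 ± 3.38). Aqp4, Mlc1, Gjb6 and Slc4a4 each differed from the next of these 4 in the order by less than the SD. Atp1b2 was the highest and Gjb2 the lowest of the 9 in each of the 17 libraries. In CD11b-positive libraries the order was another: Kcnj10 was the highest per kilobase in 12 of 15 libraries, at 2.15 ± 0.460 CPM per kilobase, and Atp1b2 in the other 3, at 1.16 ± 0.715. The ratio of Atp1b2 to Kcnj10 per kilobase was between 364 and 586% in ACSA2-positive libraries and between 11.6 and 155% in CD11b-positive libraries, with no overlap.

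Relative to the ACSA2-positive mean, the members fell into a main group and 3 that stood outside it. In CD11b-positive libraries Gja1, Gjb6, Aqp4, Mlc1, Atp1b2 and Slc4a4 stood at 0.129 to 0.168% of the ACSA2-positive mean, while Kcnj10 stood at 1.47%, Kcnj16 at 1.42% and Gjb2 at 0.701%, or 0.411% without mouse 20. In double-positive libraries the same 6 genes stood at 1.61 to 1.82%, Kcnj10 at 3.05%, Kcnj16 at 2.97% and Gjb2 at 7.00%, or 3.00% without mouse 10. In CaMKII positive libraries 7 members stood at 44.1 to 56.1%, Kcnj10 at 72.3% and Gjb2 at 102%, or 70.7% without mouse 8. The 13 astrocyte markers ran from 41.6 to 69.2% in CaMKII positive libraries, with the glutamate transporter Slc1a2 at 48.8%. They ran from 1.44 to 24.6% in double-positive libraries. In CD11b-positive libraries they ran from 0.108 to 23.8%, where the highest was the glutamine synthetase gene Glul. The marker ranges in double-positive and CD11b-positive libraries hold the values of Kcnj10, Kcnj16 and Gjb2. Markers of oligodendrocyte precursors, which also use Kcnj10, summed to a median of 358 CPM in CaMKII positive and 102 CPM in ACSA2-positive libraries, and to 9.90 CPM in double-positive and 6.35 CPM in CD11b-positive libraries. Their part in the Kcnj10 values was not tested.

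**Figure D3:**
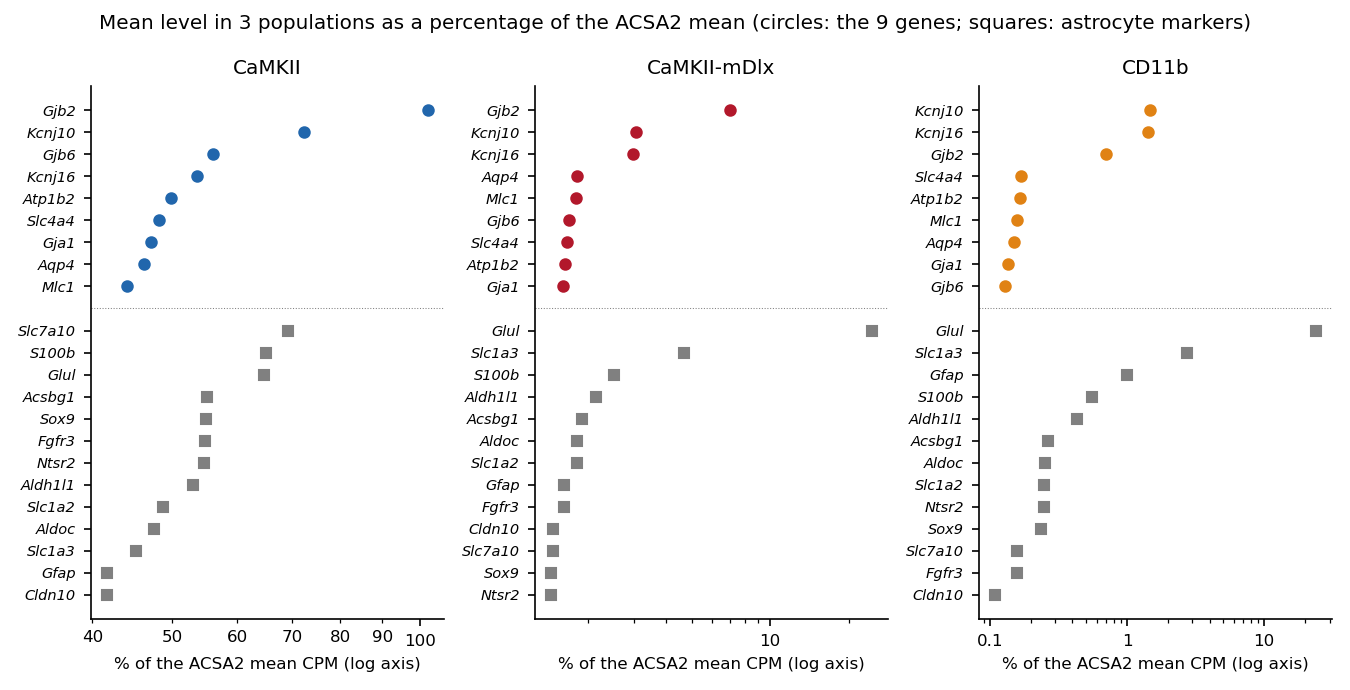
Mean CPM in CaMKII positive, double-positive and CD11b-positive libraries as a percentage of the ACSA2-positive mean, on log axes that differ between panels, for the 9 genes (circles) and 13 astrocyte markers (squares). Kcnj10, Kcnj16 and Gjb2 lie to the right of the other 6 genes in the double-positive and CD11b panels, at 1.47, 1.42 and 0.701% (Gjb2 0.411% without mouse 20) in CD11b against 0.129 to 0.168%.

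Tested against CD11b-positive libraries by edgeR's quasi-likelihood test, where a gene is called if its log2 fold change (log2FC) is 1 or more in size and its adjusted p is no higher than 0.05, all 9 genes were called higher in ACSA2-positive libraries, where 32.4% of all 30983 genes tested were called higher. For each of the 9 genes the libraries of the 2 populations did not overlap, against 13.4% of all genes in this direction. The log2FC was 6.14 (SE 0.14, 95% interval 5.85 to 6.42, adjusted p = 3.8e-28) for Kcnj10, 6.19 (SE 0.20, interval 5.78 to 6.59) for Kcnj16 and 7.33 (SE 0.44, interval 6.44 to 8.22) for Gjb2. For the other 6 it lay between 9.47 for Slc4a4 and 9.90 for Gjb6. The median over the members was 9.49 and over all genes tested 0.28. Within mice, each gene was higher in the ACSA2-positive library of all 15 mice with both libraries. The difference between the members was not itself tested.

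In CaMKII positive against ACSA2-positive libraries, 7 of the 9 genes were called lower, against 3.5% of all 30729 genes tested. The log2FC ran from −1.38 (SE 0.09, adjusted p = 3.6e-12, edgeR) for Mlc1, through −1.29 for Aqp4, −1.26 for Gja1, −1.25 for Atp1b2 and −1.22 for Slc4a4, to −1.04 for Kcnj16 and −1.02 for Gjb6. Kcnj10 had a log2FC of −0.65 (SE 0.11, interval −0.88 to −0.41, adjusted p = 3.5e-05), past the p threshold and under the minimum fold. Gjb2 had a log2FC of −0.38 (SE 0.27, interval −0.92 to 0.17, adjusted p = 0.32). The median over the members was −1.22 and over all genes 0.00.

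The libraries did not overlap for Aqp4, Gja1, Gjb6, Atp1b2, Slc4a4 and Mlc1, that is for 6 members, against 1.35% of all genes lower (4.92% higher). Within the 10 mice that had both libraries, 8 of the genes were lower in the CaMKII positive library of every mouse, and Gjb2 in 8 of 10, mice 8 and 16 being the exceptions. The median log2 ratios within these mice ran from −1.25 to −0.43 with a median of −0.90 for the members, and from −1.71 to −0.59 with a median of −0.92 for the 13 astrocyte markers. Whether the members differed apart from these markers was not tested. Region and population cannot be told apart here, since the CaMKII positive cells came from the motor cortex and the ACSA2-positive cells from caudal cortex. Without the CaMKII positive library of mouse 8, an alternative chosen after seeing the data, Gjb2 had a log2FC of −0.69 (adjusted p = 0.0063), and Gjb6 and Kcnj16 moved to −0.91 and −0.92, just under the minimum fold. Kcnj16 was also under it in the paired fit, with mouse as a replicate block (−0.99), and with DESeq2 (−0.97), and Gjb6 with DESeq2 (−0.95). Each of these 2 genes was fitted in 10 settings, the main one included, and 15 of their values were under the minimum fold. Their calls thus held in few settings besides the main one.

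In double-positive against CD11b-positive libraries, both rich in microglia markers, 7 of the 9 genes were called higher in the double-positive cells, against 5.6% of all 28752 genes tested, and 0 lower, against 1.98%. The log2FC was 3.76 (SE 0.47) for Gjb6, 3.61 (SE 0.40) for Aqp4, 3.55 (SE 0.37) for Gja1, 3.47 (SE 0.31) for Mlc1, 3.34 (SE 0.27) for Atp1b2, 3.28 (SE 0.29) for Slc4a4 and 2.74 (SE 0.83, adjusted p = 0.019, edgeR) for Gjb2. Kcnj10 at 0.93 (SE 0.12, adjusted p = 1.0e-06) and Kcnj16 at 0.97 (SE 0.24, adjusted p = 0.0048) passed the p threshold and not the minimum fold. The libraries did not overlap for 5 members, Aqp4, Gja1, Atp1b2, Slc4a4 and Mlc1, against 0.24% of all genes higher and 0.0383% lower. Region, sort and population cannot be told apart in this comparison either. The double-positive cells were sorted by reporter from the injected motor cortex, and the CD11b-positive cells by antibody from caudal cortex. With mouse as a replicate block, in the paired fit, Gjb2 had a log2FC of 2.92 with an adjusted p of 0.073, and in batch 3 alone 1.85 with an adjusted p of 0.39. The log2FC of other members was also smaller in batch 3 alone, at 2.91 for Gjb6, 2.98 for Aqp4, 2.71 for Gja1, 2.97 for Mlc1, 2.68 for Atp1b2 and 2.59 for Slc4a4, and these 6 kept their call. Without the double-positive library of mouse 10, an alternative also chosen after seeing the data, the log2FC of Gjb2 was 2.29 with an adjusted p of 0.039. Within the 14 mice that had both libraries, Aqp4, Kcnj10, Gja1, Atp1b2, Slc4a4 and Mlc1 were higher in the double-positive library of every mouse, Gjb6 in 13, Kcnj16 in 11 and Gjb2 in 10. The 13 astrocyte markers differed the same way: their median log2 ratios over these mice ran from 0.06 to 3.04 with a median of 2.51, against 0.70 to 3.47 with a median of 3.06 for the members. The markers stood at a median of 1.82% of the ACSA2-positive mean in double-positive libraries and 0.252% in CD11b-positive ones. Whether the members differed apart from these markers was not tested.

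Other genes of the same pathways, 51 in 5 lists, were read from the same fits. Against CD11b-positive libraries, 35 of the 51 were called higher in ACSA2-positive libraries, where 32.4% of all genes were called higher, and 10 lower, where 21.8% of all genes were called lower. Among those higher were Hepacam, the partner that carries Mlc1 protein to cell contacts (log2FC 9.41), the potassium channel Kcnk1 (9.68), the carbonic anhydrase Car2 (8.36) and the dystrophin gene Dmd, whose short products anchor the water channel (8.11). Among those lower were the potassium channel Kcnj2 (−4.87), the sodium-potassium-chloride cotransporter Slc12a2 (−2.44) and Panx1 (−3.46). Kcnj2 thus differed in the opposite direction from Kcnj10 and Kcnj16, members of the same channel family.

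In CaMKII positive against ACSA2-positive libraries, 11 of the 51 were called higher, against 12.7% of all genes, and 6 lower, against 3.5%. Among those lower were Hepacam (−1.23), Fxyd1, a pump regulator (−1.38), Kcnk2 (−1.38) and Car2 (−1.08). The 4 gap junction genes called higher included the oligodendrocyte connexin Gjc3 (2.49) and Gjc1 (1.68), a connexin of vessel walls. Kcnj2 (3.42), Slc4a10 (4.53), Trpv4 (2.68) and Car4 (2.35) were also higher. The CaMKII positive libraries held a median sum of 559 CPM of oligodendrocyte and 5319 CPM of endothelial markers, against 95.5 and 774 CPM in ACSA2-positive libraries, and the part of these cells was not tested. In double-positive against CD11b-positive libraries 12 of the 50 tested were called higher, against 5.6% of all genes, and 0 lower, against 1.98%, with Kcnk1 at 3.76 and Hepacam at 3.29.

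The design asks whether a burn leaves a change in expression 5 weeks later. No member was called between burn and sham in any of the 4 populations, and neither was any gene (0% of those tested) by edgeR, while 3.9% of genes in CaMKII positive, 7.01% in double-positive, 10.7% in ACSA2-positive and 7.81% in CD11b-positive libraries had an unadjusted p under 0.05. DESeq2 called 3, 2, 27 and 80 genes in the same order, and no member. No member had libraries of burn and sham mice that did not overlap, where the shares of all genes were 0.0143% higher and 0% lower in ACSA2-positive, 0.245% and 0.125% in CaMKII positive, 0% and 0% in double-positive, and 0.00383% and 0.0115% in CD11b-positive libraries.

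In ACSA2-positive libraries the intervals were narrow. The log2FC of burn against sham ran from −0.22 to 0.13 over the 9 genes with SE of 0.09 to 0.19, and every 95% interval lay between −0.60 and 0.39. Mlc1 ran from 516 to 788 CPM with a median of 640 CPM in 9 burn mice, and from 651 to 855 CPM with a median of 702 CPM in 8 sham mice. Burn mice thus lay lower, with overlap. The mean of 9 of the 13 astrocyte markers was also lower in burn than in sham ACSA2-positive libraries, as in Slc1a3 at 5817 against 6579 CPM, and that of 4 was higher. Their sum ran from 41866 to 52727 CPM with a median of 43576 CPM in burn mice. In sham mice it ran from 40869 to 55929 CPM with a median of 51215 CPM. The part of these markers in the Mlc1 values was not tested.

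The log2FC of Mlc1 was −0.22 (SE 0.10, interval −0.42 to −0.02) with an adjusted p of 0.46 by edgeR, and Mlc1 was the only member with an unadjusted p under 0.05 in any population, that is 1 of 9 in ACSA2-positive libraries, where 10.7% of all genes had one. In batch 3, the only batch with 5 mice in each group, Mlc1 was at 621 ± 34.2 CPM in burn and 724 ± 78.9 CPM in sham mice (SD, n = 5 each). Aqp4 ran from 1107 to 1722 CPM in burn and from 1331 to 1766 CPM in sham mice. Its log2FC was −0.12 (interval −0.37 to 0.12). Gja1 had a log2FC of −0.13 (interval −0.35 to 0.09) and Gjb6 of 0.01 (interval −0.19 to 0.20). For Kcnj10 it was 0.13 (interval −0.13 to 0.39), for Kcnj16 0.03, for Atp1b2 0.03, for Slc4a4 0.02 and for Gjb2 −0.21 (interval −0.60 to 0.18). A change of 1 log2 unit in either direction lay outside all of these intervals.

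In CaMKII positive libraries the intervals were wider, with SE of 0.16 to 0.42. The mean of 10 of the 13 astrocyte markers was higher in burn than in sham mice and that of 3 lower, and their sum ran from 24021 to 29652 CPM in burn and from 16296 to 29147 CPM in sham mice. Their part in the member values was not tested. Gja1 was at 1914, 1879, 1598 and 2017 CPM in burn mice 2, 20, 22 and 24, and ran from 1507 to 2261 CPM with a median of 1889 CPM in 6 sham mice. Its log2FC was 0.00 (interval −0.46 to 0.46). Kcnj10 was at 587, 603, 576 and 656 CPM in the same burn mice and ran from 377 to 661 CPM in the 6 sham mice. Its log2FC was 0.16 (interval −0.24 to 0.57). The burn mice lay inside the sham range for both genes. Gjb2, with a log2FC of −0.42 (interval −1.34 to 0.49), rested on mouse 8, without which the burn and sham means were 18.6 CPM each (n = 4 and n = 5) and the log2FC was 0.05.

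The burn effect in CaMKII positive libraries was compared with that in ACSA2-positive libraries by an interaction term. No member was called, nor any gene (0%), against 5.25% of all genes with an unadjusted p under 0.05 and no member among them. Gjb6 had the lowest member p, with a difference of 0.33 (interval −0.11 to 0.77, adjusted p = 0.95 by edgeR).

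In double-positive libraries 8 members had a log2FC above 0, up to 0.41 (interval −0.12 to 0.94) for Slc4a4, and Gjb2 was at −0.12 (interval −1.70 to 1.46). Gja1 ran from 40.9 to 141 CPM in burn and from 21.5 to 103 CPM in sham mice, with overlap. The mean of 11 of the 13 astrocyte markers was also higher in burn than in sham double-positive libraries, and their part in the member values was not tested. The 3 double-positive libraries of batch 1 all came from burn mice. Without the batch term the log2FC of Gjb2 was 2.12 (adjusted p = 0.64 by edgeR). The batch 1 libraries include that of mouse 10, at 17.6 CPM of Gjb2. Without it the burn mean of Gjb2 was 0.941 CPM in place of 2.80 CPM, against 0.616 CPM in sham mice.

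In CD11b-positive libraries Aqp4 ran from 0 to 4.84 CPM with a median of 0.862 CPM in 8 burn mice, and from 1.53 to 4.95 CPM with a median of 3.19 CPM in 7 sham mice. Of the 8 burn mice, 6 lay under the lowest sham mouse, and the log2FC was −1.16 (SE 0.64, interval −2.49 to 0.16, adjusted p = 0.72 by edgeR). That count ignores batch: the lowest sham mouse was of batch 1, which held 3 burn mice and 1 sham mouse. Aqp4 averaged 0.814 CPM in batch 1 (n = 4) and 2.80 CPM in batch 3 (n = 10). Within batch 3 it was at 1.78 ± 1.94 CPM in burn and 3.82 ± 0.893 CPM in sham mice (SD, n = 5 each). The mean of 12 of the 13 astrocyte markers was lower in burn than in sham mice of this population, as in Slc1a2 at 46.2 against 70.0 CPM and the aldolase gene Aldoc at 7.65 against 13.2 CPM, and the mean of Slc1a3 was higher. Their sum, most of it Glul, ran from 1743 to 2424 CPM in burn and from 1807 to 2367 CPM in sham mice, and S100b, Sox9, Slc7a10 and Cldn10 were at 0 in some libraries. The part of these cells in the Aqp4 values was not tested. Kcnj10 in these libraries ran from 8.05 to 14.7 CPM in burn and from 5.93 to 15.9 CPM in sham mice. Its log2FC was 0.10 (interval −0.28 to 0.48). Of the 9 members, 3 had a log2FC above 0 and 6 below 0. Those below included Mlc1 at −0.65 (interval −1.90 to 0.60) and Slc4a4 at −0.54 (interval −1.25 to 0.16). Gjb2 had counts in 5 of 8 burn and 3 of 7 sham mice, and its log2FC of 2.63 had an interval of −0.80 to 6.05. With 1 mouse left out it ran from 1.96 (without mouse 20) to 4.11 (without mouse 8), and without mouse 20 the burn mean of Gjb2 was 0.154 CPM in place of 0.291 CPM.

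**Figure D4:**
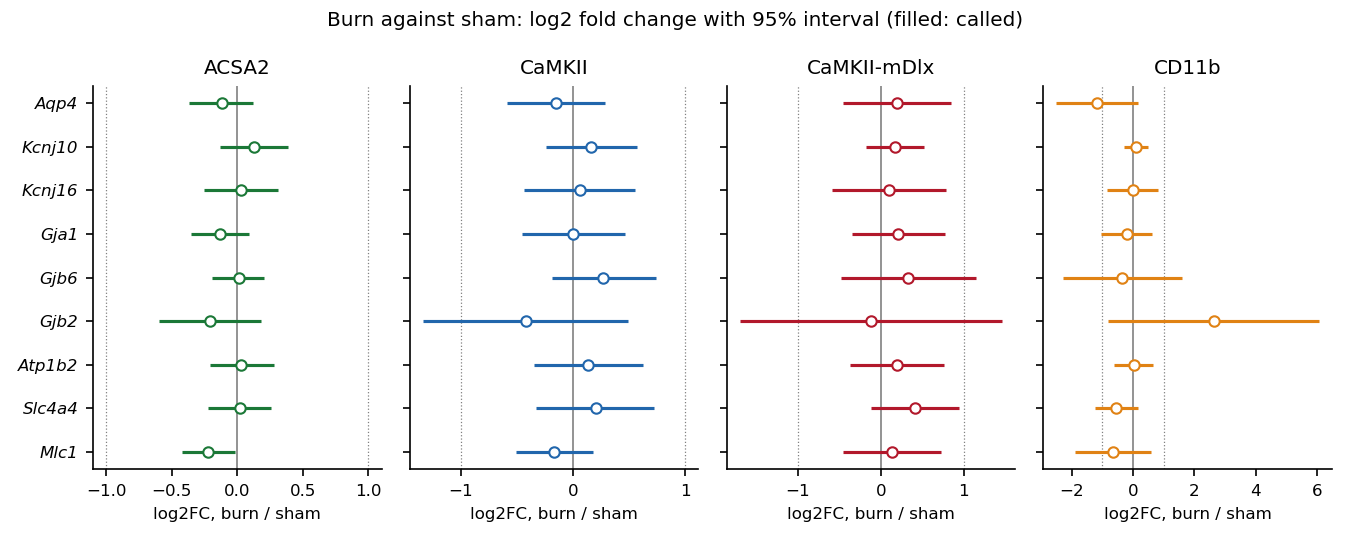
Log2 fold change of burn against sham for the 9 genes in each population, with 95% intervals from the edgeR fits. The horizontal axes differ between panels, dotted lines mark a log2FC of 1 in either direction, and open points were not called. In the ACSA2 panel all intervals lie between −0.60 and 0.39.

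None of the 51 pathway genes was called between burn and sham in any population. Of those tested, 0 of 50 in CaMKII positive, 2 of 50 in double-positive, 2 of 51 in ACSA2-positive and 0 of 49 in CD11b-positive libraries had an unadjusted p under 0.05, against 3.9, 7.01, 10.7 and 7.81% of all genes in the same order.

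Between sequencing batches 1 member was called, in CD11b-positive libraries. In CD11b-positive libraries Atp1b2 was called higher in batch 3 than in the earlier batches (log2FC 1.60, SE 0.41, adjusted p = 0.046 by edgeR), where 0.391% of all genes were called higher and 0.00767% lower. It was at 1.496 ± 0.545 CPM in batch 1 (SD, n = 4), 2.61 CPM in the library of batch 2 and 6.25 ± 2.34 CPM in batch 3 (n = 10). Gja1 at 1.39 (adjusted p = 0.18) and Slc4a4 at 1.33 (adjusted p = 0.12) did not pass, and Kcnj10, at 10.4 ± 1.84 CPM in batch 1, 15.9 CPM in the library of batch 2 and 11.7 ± 2.40 CPM in batch 3, had a log2FC of −0.20 (interval −0.64 to 0.23).

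In double-positive libraries all 9 members had a negative log2FC for batch 3 against earlier batches, with a median of −0.72 against −0.04 over all genes, and 0 were called, against 0.966% of all genes called lower and 0.15% higher. 7 of the 9 had an unadjusted p under 0.05, against 21% of all 26707 genes. Gja1 was at 105 ± 37.2 CPM in batch 1 (SD, n = 3), 77.8 ± 17.3 CPM in batch 2 (n = 3) and 47.4 ± 23.6 CPM in batch 3 (n = 10), with a log2FC of −0.89 (SE 0.25, adjusted p = 0.037 by edgeR), under the minimum fold. The libraries of batch 1 include that of mouse 10. In ACSA2-positive libraries no member was called between batches, against 0.641% of all genes called higher and 0.39% lower, and the log2FC ran from −0.16 to 0.35. In CaMKII positive libraries, where batch 1 held 2 libraries, that of mouse 8 among them, no member and no gene was called (0% higher and 0% lower by edgeR). There 2 of the 9, Gjb2 at −1.57 (adjusted p = 0.73 by edgeR) and Mlc1 at −0.53 (adjusted p = 0.88), had an unadjusted p below 0.05, against 5.37% of all genes.

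**Figure D5:**
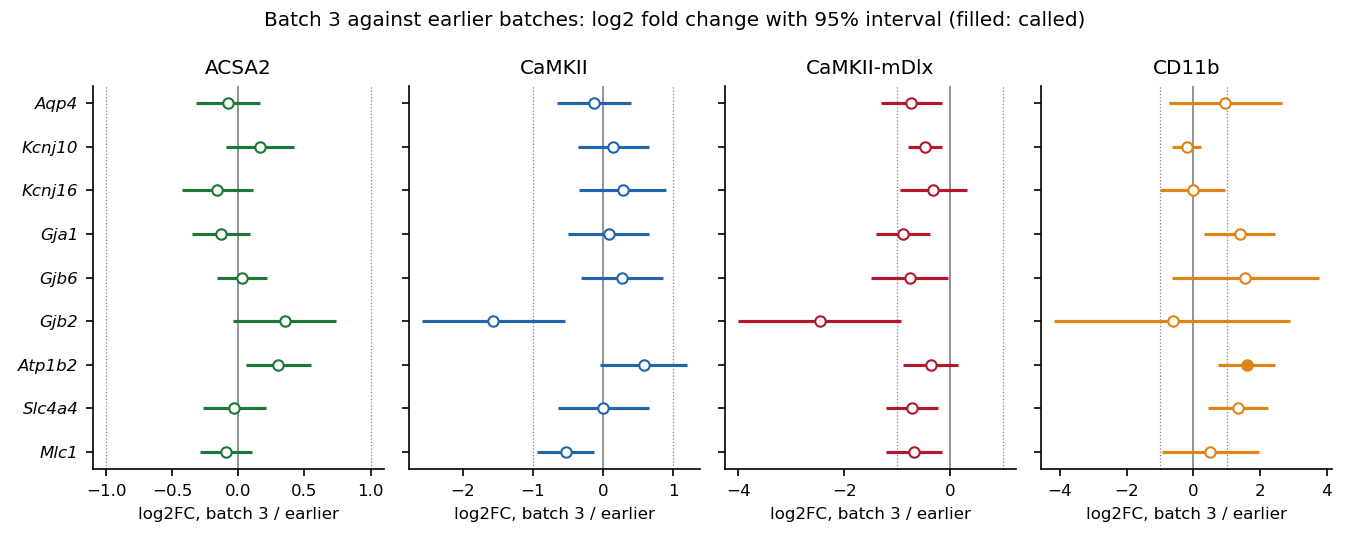
Log2 fold change of batch 3 against the mean of the earlier batches for the 9 genes in each population, with 95% intervals from the edgeR fits (filled, called; dotted lines, a log2FC of 1 in either direction; the horizontal axes differ). All 9 double-positive points lie below 0, and in the CD11b panel Atp1b2 is called at 1.60 while Kcnj10 lies at −0.20.

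Across the 58 libraries, the gene whose log2 CPM was most like that of a member was sought among 16172 genes by Pearson's r. These values mostly reflect the 4 populations, which form separate levels, and are given as a description. Gja1 was most like Ncan (r = 0.997), Atp1b2 most like Scg3 (0.998), Aqp4 and Mlc1 both most like Clu (0.993 and 0.995), Gjb6 most like Ntrk2 (0.992), Kcnj16 most like Ndrg2 (0.988) and Kcnj10 most like the predicted gene Gm3888 (0.992). Gjb2 was most like Antxr1 (0.972) and was the member least like each of the other 8, at 0.921 to 0.953.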

How the data were processed

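Per the labels and the methods of the study, total RNA of sorted cells was sequenced from stranded, ribosomal RNA-depleted libraries, the authors trimmed reads with fastp, aligned them with STAR, counted them with GenomicAlignments and deposited 1 table of raw counts per gene for each population. The sources name both mm10 and GRCm39 for the genome, and whether counting used the strand is not given in the sources used here. 0 columns were left unused and no 2 libraries held identical counts. The deposited normalised values were not used here.

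CPM was computed from the total count. Burn against sham was tested in each population with edgeR 4.0.16 in R 4.3.3 (quasi-likelihood test, TMM, genes with at least 10 counts in total, batch and treatment as terms, Benjamini-Hochberg adjustment over all genes). Genes were called at a log2FC of 1 or more in size with an adjusted p no higher than 0.05. Populations were compared in joint fits with batch, treatment and population as terms, and the text names all 9 members and, by smallest p, up to 3 called genes in each direction per pathway list, some of which are not reported here. SE and intervals were derived from the F statistic. The fits of burn against sham in ACSA2-positive libraries and of CaMKII positive against ACSA2-positive libraries were also run on simulated counts. These had the same dispersion for all genes, changes only in well-counted genes and no effect of batch or mouse. They do not cover genes at low counts, outlying libraries or pairing. DESeq2 1.42.0, other size factors, filters, batches and libraries were alternatives. Batches come from the sample table of the study.

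Members and lists were chosen with earlier results of these data known. Symbols came from a table of gene names, which matched 52073 of 56980 identifiers. Exon lengths and overlaps came from GENCODE M21 (GRCm38), an older build, where no other gene overlaps a member. Libraries with the same number come from 1 mouse. Their deviations from group means correlated at a median r of 0.09 over 15 mice between ACSA2-positive and CD11b-positive libraries, 0.01 over 10 mice between CaMKII positive and ACSA2-positive, and 0.11 over 14 mice between double-positive and CD11b-positive. Paired fits with mouse as a replicate block were run as alternatives. Within a population, p-values measure the spread between mice. In the joint fits without a mouse term, libraries of the same mouse enter as separate units, and p-values measure the spread between libraries.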

Additional observations from a re-analysis of the deposited data

Results flagged for a closer look

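Of 72 groups of libraries, 1 for each gene, population and treatment, 6 held a library whose gap to its nearest neighbour passed Dixon's 95% critical value, and chance flags about 1 group in 20. Gjb2 gave 3 of the 6. It was at 102 CPM (2694 counts) in the CaMKII positive library of sham mouse 8, where the next was 23.5 CPM, at 17.64 CPM (560 counts) in the double-positive library of burn mouse 10, where the next was 2.61 CPM, and at 1.252 CPM (29 counts) in the CD11b-positive library of burn mouse 20, where the next was 0.436 CPM. The summed leptomeningeal fibroblast markers were the highest of their group in each of these libraries, at 896, 198 and 5.96 CPM. Gjb6 was at 28.6 CPM in the same double-positive library of mouse 10, where the next was 16 CPM.

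In CD11b-positive libraries Gja1 was at 13.39 CPM (310 counts) in burn mouse 20, where the next was 5.93 CPM, and without it the burn mean was 3.10 CPM in place of 4.38 CPM. Gjb6 was at 1.875 CPM (35 counts) in burn mouse 22, where the next was 0.691 CPM, and without it the burn mean was 0.380 CPM in place of 0.567 CPM.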

How the results depend on the processing

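Between burn and sham, edgeR called 0 genes in each population with any 1 mouse left out (0 to 0 in all 4). DESeq2 called 3 genes in CaMKII positive, 2 in double-positive, 27 in ACSA2-positive and 80 in CD11b-positive libraries. With every gene that had any count, edgeR called 14 genes in double-positive and 4 in ACSA2-positive libraries, and with all deposited libraries, among them the double-positive library of mouse 8 with its low total, 136 in double-positive libraries, all lower, with the median of all genes at 0.22. None of these settings called a member: 0 calls were made among 162, 216, 225 and 207 member values in CaMKII positive, double-positive, ACSA2-positive and CD11b-positive libraries, and 18, 7, 22 and 21 of these values changed sign.

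Between populations, the 72 values of the members in ACSA2-positive against CD11b-positive libraries kept their direction and call. In CaMKII positive against ACSA2-positive libraries the count of called genes was 4978, and 3302 with the replicate block, where no member's direction changed. Of 81 member values, 15 fell under the minimum fold, and all 15 were of Gjb6 or Kcnj16. Each of these genes was fitted in 10 settings, the main one included, so that their calls held in few others. Their log2FC over all settings ranged from −1.08 to −0.86 for Gjb6 and from −1.04 to −0.87 for Kcnj16. Car2 and Car14 of the pathway lists lost their call in at least 1 setting. Scaling by library size only moved the median of all genes to 0.16. In double-positive against CD11b-positive libraries the count was 2179, and 1287 with filterByExpr, 1008 in batch 3 alone and 1092 with the replicate block, and Gjb2 lost its call in batch 3 alone and in the paired fit. Kcnj16 was called at 1.02 with library size only. Gja4, Gjb1 and Slc4a10 of the pathway lists lost their call there in at least 1 setting. The causes were not tested. All 36 mean levels moved by less than 1 SD under TMM scaling over the 58 libraries. Depth limits Gjb2, Gjb6, Aqp4 and Mlc1 in CD11b-positive libraries, where some had 5 counts or fewer.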

Other observations

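In the CaMKII positive library of mouse 3, a burn mouse, Gja1 was at 2684 CPM, Gjb6 at 569 CPM, Slc4a4 at 1726 CPM and Mlc1 at 467 CPM, each above the highest of the 10 kept CaMKII positive libraries. In its ACSA2-positive library Gja1 was at 3622 CPM and Aqp4 at 1307 CPM, both inside the kept range. The double-positive library of mouse 8 held 1 count over all 9 genes, for Kcnj10.

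In ACSA2-positive libraries the coefficient of variation between the 17 mice was 10.8% for Gja1, 11.7% for Gjb6, 11.9% for Mlc1, 14.2% for Aqp4, 14.2% for Slc4a4, 17.8% for Kcnj16, 17.9% for Kcnj10, 18.1% for Atp1b2 and 30.9% for Gjb2. In CD11b-positive libraries it was 21.4% for Kcnj10, and 77.3% for Gja1, 76.1% for Aqp4 and 61.7% for Atp1b2.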
